A study of Mus musculus with 2 samples.

Results

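The neuromuscular junction genes described here are 10 genes whose products form, cluster or serve the acetylcholine receptor of skeletal muscle: Chrna1, Chrnb1, Chrnd, Chrng, Chrne, Musk, Rapsn, Agrn, Dok7 and Ache. They were chosen by symbol, and all 10 had at least 1 probe set that the array annotation pairs with 1 gene symbol, among 18194 genes measured in that way. The RNA was total RNA of wild-type whole mouse embryos at E14.5, hybridised in duplicate to Affymetrix oligonucleotide arrays that cover the mouse genome. Neither treatment nor mutant is part of the series, the study's E14.5 embryos were of the NMRI or the C57/BL6 strain, without a statement of which of them was used for the arrays, and it is not stated if separate embryos, or separate RNA, went on each array, so their spread may be technical. With 1 condition there are no groups to test, and the question that can be put to the data is which of these transcripts gave a signal above background in the midgestation embryo, the fetal receptor subunit Chrng and the adult subunit Chrne in particular.

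The muscle acetylcholine receptor is a ring of subunits around a cation channel. The alpha, beta and delta subunits (Chrna1, Chrnb1 and Chrnd) are shared by both forms of the receptor, whereas the remaining place is held by the gamma subunit (Chrng) in fetal muscle and by the epsilon subunit (Chrne) in adult muscle, an exchange that in the mouse takes place around and after birth. Agrin (Agrn), secreted by motor nerve terminals, binds Lrp4 and activates the receptor tyrosine kinase MuSK (Musk) on the muscle membrane; Dok7 is the cytoplasmic adaptor that MuSK needs, rapsyn (Rapsn) anchors the receptors in clusters, and acetylcholinesterase (Ache) ends the signal by splitting acetylcholine. Myogenic transcription factors such as MyoD and myogenin bind E-boxes in the promoters of receptor subunit genes, and Ets-type factors act on the genes that are transcribed by the nuclei beneath the synapse.

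The sequences upstream of the fetal and the adult subunit gene are shown because the comparison of these genes is the centre of the set, and because both motifs just named can be looked for in them. They are the RefSeq sequences of build GRCm38.p6, read 5' to 3' on the strand of the gene and ended before the annotated span of the gene. The Chrne window runs on for 19 bases into that span, which are not printed, and positions are counted from the start at the end of the window. Capitals mark E-boxes, searched as CANNTG, which reads the same on both strands, and the Ets-type motif, searched as CCGGAA on both strands; the motifs do not overlap each other here. Chrng lies on the plus strand (chr1:87205561-87205810) and Chrne on the minus strand (chr11:70619214-70619444).
Chrng: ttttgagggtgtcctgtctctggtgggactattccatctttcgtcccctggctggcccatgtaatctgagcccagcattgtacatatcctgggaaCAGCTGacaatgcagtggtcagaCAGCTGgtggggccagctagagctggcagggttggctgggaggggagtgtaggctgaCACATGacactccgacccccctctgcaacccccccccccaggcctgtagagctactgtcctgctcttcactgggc
Chrne: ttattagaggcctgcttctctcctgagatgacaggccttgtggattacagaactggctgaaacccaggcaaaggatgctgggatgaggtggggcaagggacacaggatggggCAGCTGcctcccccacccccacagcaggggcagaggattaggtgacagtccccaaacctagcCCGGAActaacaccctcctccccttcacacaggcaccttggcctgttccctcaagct

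The Chrng sequence held 3 E-boxes, which began 155, 132 and 75 bases before the start, and the first and second of them had the form CAGCTG. The Chrne sequence held 1 E-box, also CAGCTG, 138 bases before the start, and 1 Ets-type motif 76 bases before it. In the 250 bases before the start, 8 of the 10 genes had a window in the table; Chrnd and Rapsn did not. Chrna1, Chrnb1 and Musk had 3 E-boxes each like Chrng, Ache had 1, and Agrn and Dok7, with 2 windows each, had 1 E-box in 1 of them. An E-box of any form is common, and 66.2% of all 32841 windows of this length held one, but 3 or more were found in 12.2%. The form CAGCTG was present upstream of Chrna1, Chrng, Chrne and Musk and in 13.0% of all windows, and Chrne was the only one of the 8 genes with the Ets-type motif, which 12% of all windows held. A match of letters is a description and no evidence that a factor binds there.

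**Figure D1:**
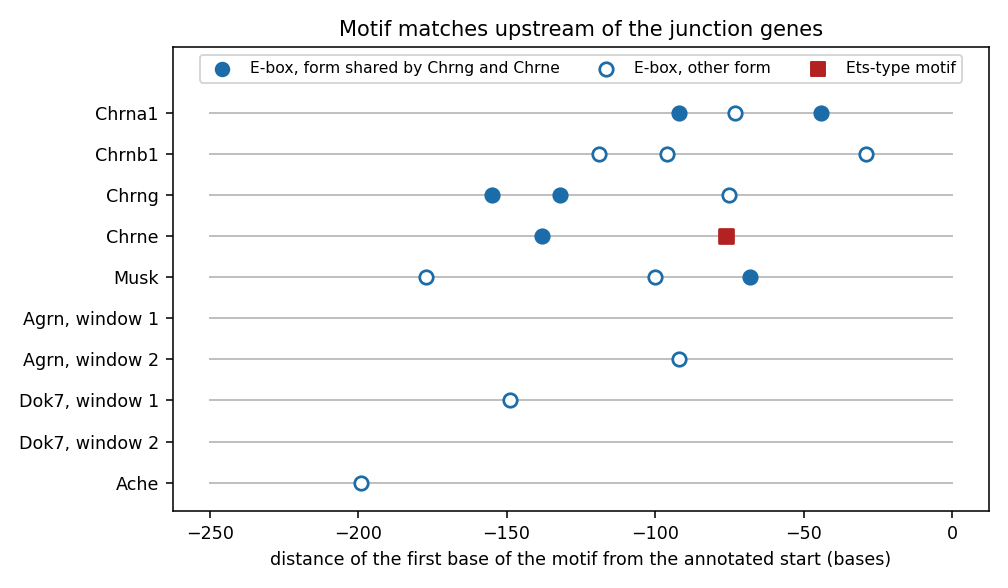
Positions of E-boxes (circles; filled for the form that Chrng and Chrne share) and of the Ets-type motif (square) in the 250 bases before the annotated start of the 8 genes with a window, with distance from the start in bases on the x axis. Chrna1, Chrnb1, Chrng and Musk hold 3 E-boxes each, and the Ets-type motif is found in Chrne alone.

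Signals are the linear values of the array software, scaled to the same trimmed mean of 100 on both arrays. Background was set on each array as the 95th percentile of the signals of chemosensory receptor genes (olfactory, vomeronasal and bitter taste; 81 probe sets), taken as silent in the embryo. This bound was 27.9 on array 1 and 33.8 on array 2, close to the array medians of 32.0 and 35.3. Genes were called above background where some probe set of theirs exceeded the bound of array 1 and the same or another one that of array 2. Signals of different probe sets are not on one scale, since probes differ in how well they hybridise, so each signal was read against the bound and no level of one gene was set against that of another. The labelled source was checked with 8 marker genes of liver, neurons, cartilage, heart, epidermis and endothelium, and all were above background, among them Afp (3594 and 3529), Alb (2846 and 2405), Tubb3 (471 and 506) and Stmn2 (937 and 821).

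Of the 10 junction genes, 8 were above background on both arrays and Chrnd and Chrne were below it on both. Over all genes measured the share above background was 65.5%, and a count of 8 in 10 is therefore not far from what the array gave in general. Genes with more probe sets had more chances to pass. Of the 7 junction genes with 1 probe set 5 passed, where 48.6% of all such genes did, and all 3 with several probe sets passed (Chrng, Agrn and Dok7), where 82.8% of all such genes did. Counted by probe set, 8 of 14 were above background on both arrays, 5 on neither and 1 on array 2 only, beside 49.1% of all 45101 probe sets on both. Since RNA of whole embryos was measured, few cells with much of a transcript cannot be told apart from many cells with little of it.

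**Figure D2:**
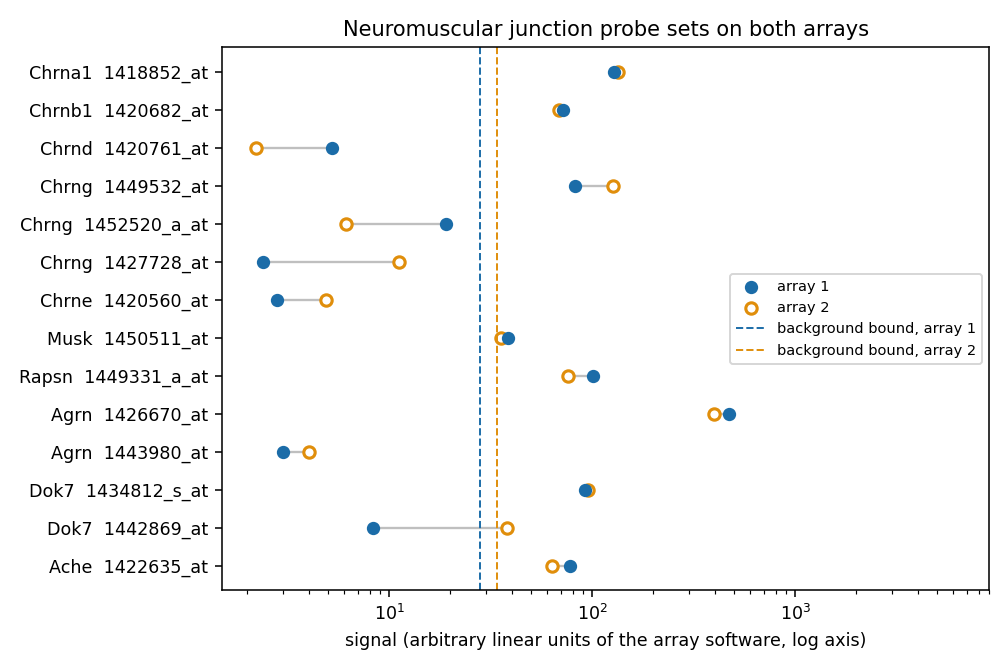
Signal of the 14 probe sets of the junction genes on array 1 (filled) and array 2 (open), on a log axis in the linear units of the array software, with the background bound of each array dashed. For 8 of the probe sets both signals lie to the right of the bounds, and Chrnd, Chrne, 2 probe sets of Chrng and 1 of Agrn lie to their left on both arrays.

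For the fetal subunit Chrng, probe set 1449532_at had signals of 82.3 on array 1 and 126.9 on array 2 (mean 104.6 ± 31.5, SD, n = 2 arrays). These are 2.95 and 3.75 times the bound. The only probe set of the adult subunit Chrne, 1420560_at, had signals of 2.8 and 4.9 (mean 3.85 ± 1.48, SD, n = 2 arrays). Both lay at 0.100 and 0.145 times the bound and below the median of the receptor probe sets taken as silent, which was 6.4 on array 1 and 7.5 on array 2. The fetal subunit was therefore above background and the adult subunit was not, on either array. Absence of the Chrne transcript cannot be read from this, as the response of this single Chrne probe set to its transcript is not known from these arrays.

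The Chrng call rests on 1 of 3 probe sets. The others, 1452520_a_at and 1427728_at, were below the bound on both arrays, at 19.1 and 6.1 and at 2.4 and 11.1. In the annotation these probe sets share one target sequence record, which is not that of 1449532_at. If the median over the 3 probe sets stood for the gene, Chrng would have signals of 19.1 and 11.1 and would be below background like Chrne. Why the probe sets of Chrng disagree was not tested, and the comparison with Chrne rests on 1449532_at.

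The myosin heavy chains of muscle offer another set of developmental and adult forms. Myh3, the embryonic chain, had signals of 1718 and 1758 and Myh8, the neonatal chain, of 536 and 696, which are 61.6 and 52.0 and 19.2 and 20.6 times the bounds. Of the adult fast chains, Myh2 (10.6 and 4.6) and Myh4 (2.7 and 8.6 for the probe set with the higher mean) were below background. Myh1 was above it, at 62.8 and 75.7 with 1427520_a_at and at 48.1 and 55.8 with 1427868_x_at, while its remaining probe set gave 1.6 and 1.8. The ending x marks a probe set with probes that can match other transcripts, and 1427520_a_at does not carry it. These genes are close paralogues and the remaining Myh1 probe set was below background, so the Myh1 signal is uncertain.

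**Figure D3:**
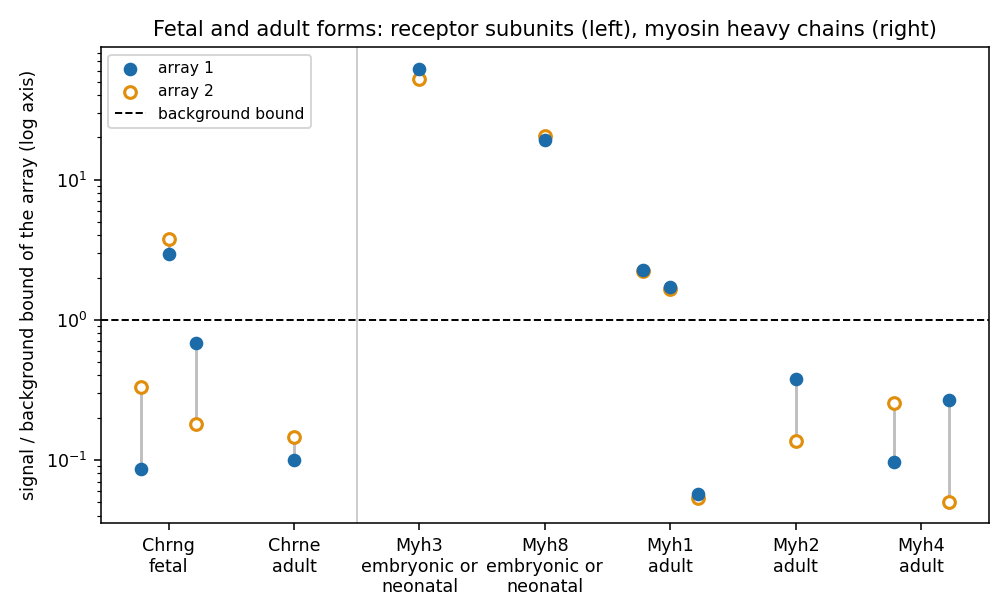
Signal divided by the background bound of its array, on a log axis, for each probe set of the fetal and adult receptor subunits and of the embryonic, neonatal and adult myosin heavy chains, on array 1 (filled) and array 2 (open). Chrng has 1 of 3 probe sets above the dashed bound and Chrne none, Myh3 and Myh8 lie above it, and Myh1 is the only adult chain with probe sets above it.

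The subunits common to both receptor forms were not alike. Chrna1, which carries most of the acetylcholine binding site, had signals of 128.5 and 134.2, or 4.61 and 3.97 times the bound. Chrnb1 had 71.6 and 68.8, about equal on both arrays and 2.57 and 2.04 times the bound. Chrnd, the delta subunit, gave 5.2 and 2.2, which is below the median of the receptor probe sets taken as silent on both arrays. Thus 3 of the 5 subunit genes were above background, which is near the share of 65.5% over all genes measured (48.6% of those with 1 probe set). Chrnd was not, although its product belongs to the fetal receptor as well as to the adult one. Chrnd and Chrng are next to each other among the protein-coding genes of chromosome 1, and only Chrng had a probe set that passed. Chrnd had 1 probe set to pass with, whereas Chrng had 3, of which 1 passed. As for Chrne, the response of the single Chrnd probe set to its transcript is not known from these arrays. Absence of the Chrnd transcript therefore cannot be read from its signal. The annotated spans of Chrna1, Chrne, Rapsn, Agrn and Ache overlap another annotated gene, and whether their probes also match its transcript was not tested.

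Of the genes that induce and hold the receptor clusters, all were above background, Musk only narrowly and Dok7 through a probe set with shared probes. Beside this, 65.5% of all genes measured passed, 48.6% of those with 1 probe set and 82.8% of those with several. Agrn had signals of 473 on array 1 and 397.5 on array 2, which are 17.0 and 11.8 times the bound. Agrin is also made by many tissues other than motor neurons, including basement membranes of kidney, lung and brain vessels, and this probe set does not separate the neural splice form from the others. The second Agrn probe set, 1443980_at, had signals of 3.0 and 4.0 and lay below background. Rapsn had 100.5 and 76.2, or 3.60 and 2.25 times the bound.

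Dok7 passed with 1434812_s_at, at 91.5 and 95.3, which is 3.28 and 2.82 times the bound. Its other probe set, 1442869_at, was below the bound on array 1 at 8.3 and just above it on array 2 at 38.2. The ending s marks probes shared by several transcripts, and without probe sets of this kind Dok7 was no longer above background on both arrays. Musk passed narrowly, with 38.4 and 35.3, or 1.38 and 1.04 times the bound. With the bound at the 99th percentile of the silent receptors (33.9 and 41.4), Musk was below it on array 2, and with the array medians as the bound its signal on array 2 equalled the bound and did not exceed it.

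Acetylcholinesterase was above background, with Ache at 77.8 and 63.2, or 2.79 and 1.87 times the bound. Ache is made by red cells and neurons as well as by muscle, and in the same RNA the erythroid genes were far above the bounds, with all 6 measured genes passing and Hbb-y at 3947 and 4118, Hbb-bh1 at 552 and 576, Alas2 at 1989 and 1975 and Epb42 at 327 and 339. The part of these cells in the Ache signal was not tested. Of the genes that anchor or complement the enzyme, Bche, the butyrylcholinesterase gene, passed at 95 and 82.4. Colq, the collagen tail that holds acetylcholinesterase in the synaptic basal lamina, gave 16.4 and 31.0 and was below the bound, and Prima1, its membrane anchor in neurons, was above it only on array 1, at 32.5.

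The duplicates gave closer signals for some of the junction genes than for others. Among the 8 probe sets above both bounds, 3 were higher and 5 lower on array 2 after centring, and their median absolute difference was 0.20 on the log2 scale, beside 0.14 over all 22138 probe sets above both bounds. Chrna1 (0.05), Dok7 (0.05), Chrnb1 (-0.07) and Musk (-0.13) differed by less than the SD of 0.26 over all these probe sets. Rapsn, Ache and Agrn were lower on array 2, at -0.41, -0.31 and -0.26. With Chrng, 4 of the 8 probe sets exceeded the SD, Agrn only just, where 26.3% of all these probe sets did. Chrng stood apart, higher on array 2 by 0.61, a 1.54-fold difference in signal, and 3.07% of all the probe sets had a larger absolute difference. Among these 8 probe sets, that of the fetal subunit thus differed most between the arrays, and on the lower of its arrays it was still 2.95 times the bound. Probe sets not above both bounds, such as 1442869_at of Dok7 (8.3 and 38.2), are not part of this ranking. With a single pair of arrays, no test was made of these differences.

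**Figure D4:**
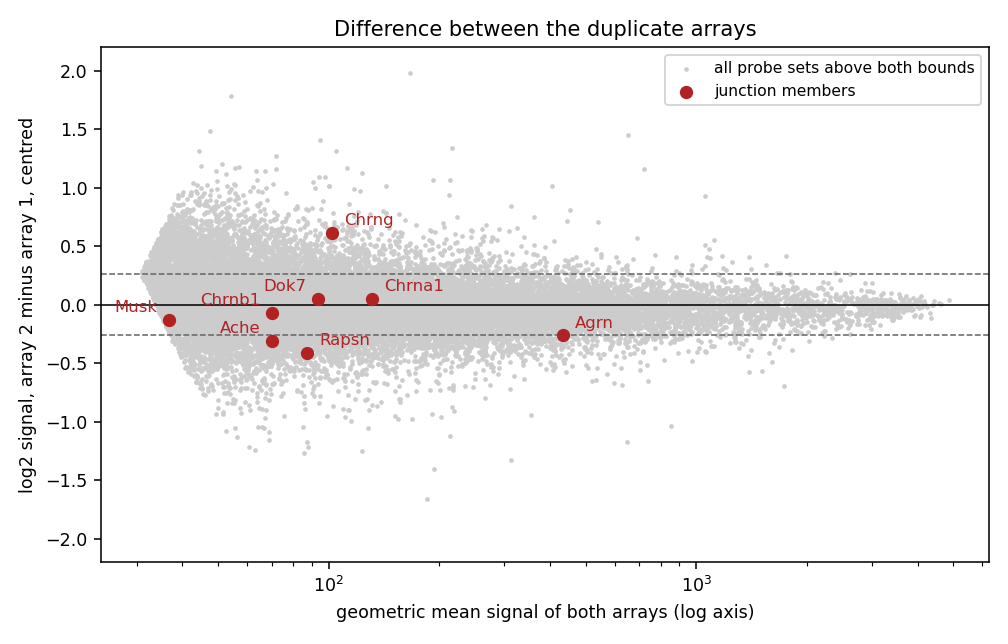
Centred log2 signal of array 2 minus array 1 against the geometric mean signal on a log axis, for all 22138 probe sets above both bounds (grey) and the 8 of the junction genes (red); dashed lines mark the SD of 0.26. Chrng is the junction gene farthest from 0, at 0.61.

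Other genes of the junction were taken from lists by role. All 17 measured partners of MuSK signalling passed, among them Lrp4, the agrin receptor beside MuSK (72.1 and 63.5), Dnaja3 (228 and 195.5), Abl1 (562 and 504) and Abl2 (186 and 197), though most of these kinases and adaptors work in many cell types. All 10 measured genes of the dystrophin complex and its scaffolds passed too, with Utrn, the utrophin of the postsynaptic membrane, at 212 and 212 and Dmd at 67.8 and 73.8, Dag1 at 739.5 and 659 and Sntb1 at 49.2 and 53.1. Of 14 basal lamina genes 11 were above background. Besides Colq the exceptions were the collagen chains Col4a3 (30.0 and 32.7, above the bound on array 1 only) and Col4a4 (3.4 and 2.7). The related chain Col4a5, named here after its values were seen, passed at 198.8 and 135.3. In the neuregulin pathway and its Ets factors 5 of 7 passed, and the ligand gene Nrg1 (14.6 and 15.6) and the receptor gene Erbb4 (0.4 and 7.7) did not. Beside these counts, 65.5% of all genes measured passed, and 82.8% of those with several probe sets. The measured MuSK partners except Lrp4, and all measured genes of the dystrophin complex, had several probe sets. Their full counts are therefore not read as a result about the junction.

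Muscle genes were read in the same RNA by stage. Of 12 genes of myogenic and embryonic muscle 11 passed, the exception being Myf6, a myogenic factor of later fibres, at 22.0 and 28.9. Of 11 measured genes in a list named for mature fast fibres 6 passed. Mb, the myoglobin gene, is in that list but is not particular to fast fibres. Those that did not were Myh2, Myh4, the chloride channel gene Clcn1 (4.2 and 6.0), the kinase gene Mylk2 (11.7 and 5.0) and Pvalb, the parvalbumin gene, which was above the bound only on array 1 (34.2 and 24.3). The mature fibre genes that passed are named here after their values were seen. They were Atp2a1 (416.4 and 419), Actn3 (126.8 and 149.4), Casq1 (120.8 and 129.9), Mb (68.4 and 70.5), Pygm (54.2 and 57.2) and Myh1. Over all genes measured the share above background was 65.5%. The difference between these muscle lists was not tested. Heart was part of the same RNA, with its marker gene Myh6 at 183.9 and 235.2. The part of heart and other tissues in the signals of both lists was not tested.

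On the nerve side, 4 of 10 motor neuron genes were above background, namely the transcription factor genes Isl1 (114 and 121), Isl2 (39.0 and 50.3) and Lhx3 (51.0 and 45.7) and the intermediate filament gene Prph (180 and 189). As RNA of whole embryos was measured, the part of motor neurons in these signals was not tested. The remaining 6 genes were below background on both arrays and are named here after their values were seen. They were the transcription factor genes Mnx1 (11.3 and 9.9), Lhx4 (17.1 and 28.4) and Etv4 (14.9 and 11.7), Chat, which synthesises acetylcholine (4.0 and 21.7), its vesicular transporter gene Slc18a3 (23.9 and 18.2) and the choline transporter gene Slc5a7 (14.0 and 18.4). Of the neuronal nicotinic receptor subunits 2 of 10 measured passed, Chrna4 (55.6 and 75.2) and Chrnb2 (60.9 and 57.0), beside 3 of 5 for the muscle subunits. The share over all genes measured was 65.5%. Schwann cell and glial genes passed in 4 of 6 cases, with Egr2 (16 and 27.4) and Cdh19 (9.8 and 8.7) below the bound. None of 18 genes of late germ cells, photoreceptors, milk and the like, which were taken as silent, passed on both arrays.

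**Figure D5:**
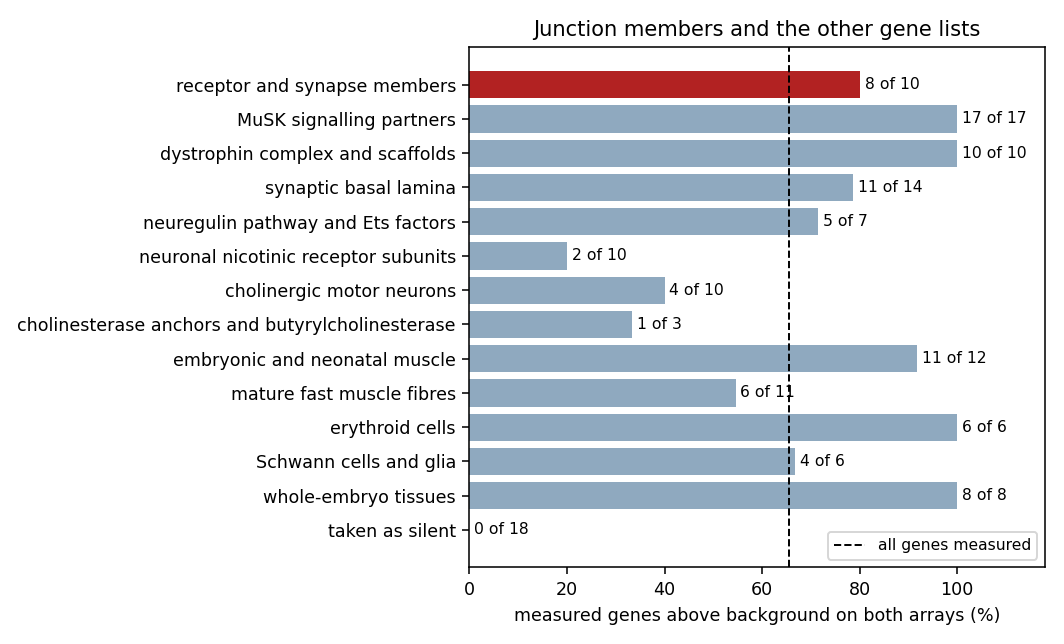
Percentage of each list's measured genes that were above background on both arrays, with counts beside the bars; the dashed line is the 65.5% of all genes. The junction genes (red, 8 of 10) lie above that line, and the neuronal nicotinic receptor subunits (2 of 10) and motor neuron genes (4 of 10) lie below it.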

How the data were processed

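Duplicate arrays of E14.5 wild-type whole embryos were analysed as 1 condition. The deposited values are signal intensity values, 1 per probe set and array, which the authors made with GCOS 1.3 (named in the submitters' processing notes) and scaled to a mean of 100 after trimming of 2% at each end. Detection calls were not used here. Probe sets with 1 symbol (34958) were named from GEO's annotation of the array, which is an older one, updated by gene identifier through RefSeq GRCm38.p6 where listed (34754). Where a gene had several probe sets, the values of the brightest by mean stand for it unless others are named. Log2 differences are array 2 minus array 1, centred on the median over probe sets above both bounds.

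No p-value was computed. Junction genes, lists and the rule for named genes were chosen with earlier results of these data known. The rule names every junction gene, and from each other list the genes on its rarer side of the bound if 5 or fewer, otherwise the first 4 measured. Of 151 list names 141 were measured. Alternatives were other bounds, 1 probe set on both arrays, removal of probe sets with shared probes, either array alone, the median over probe sets and, for differences, other scaling and filters. The steps were tested on simulated data. Python 3.11.15, pandas 2.3.3, numpy 2.4.6, scipy 1.17.1 and matplotlib 3.10.9 were used. The number of arrays limits the precision.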

Additional observations from a re-analysis of the deposited data

How the results depend on the processing

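Of the 10 junction genes, 8 stayed above background under 5 of 8 alternatives and 7 under the others. Musk was lost with the 99th percentile bound and with the bound at the array median, and Dok7 without probe sets with shared probes; with either array alone the count was 8. Chrng was above and Chrne below the bound under these 8 alternatives. The mean ratio of Chrng to the bound, 3.35 in the values reported, was 4.04 with the 90th percentile bound, 2.75 with the 99th and from 2.95 to 3.75 with either array alone. With the median over its probe sets, Chrng had a mean signal of 15.1 in place of 104.6 and was below background on both arrays, while Agrn (219 in place of 435) and Dok7 (58.3 in place of 93.4) stayed above it. The number of genes above background over the whole array ranged from 11262 to 12518 with both arrays. Of 96 counts of the other lists, an alternative added after the data were seen, 93 were within 1.5 times the reported count. The list of cholinesterase anchors and butyrylcholinesterase had 1 gene above background in the values reported, the enzyme gene Bche. It rose to 2 genes with the 90th percentile bound and with the bound from the genes taken as silent, and had 1 or 2 with a single array. All 35 values of the differences between arrays moved by less than their SD over all probe sets under 4 alternatives, by 0.12 at most. The duplicates may be technical, and signals near the bound, such as Musk, cannot be placed firmly with 2 arrays.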
